A study of Mus musculus with 16 samples.

Results

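Genes of cholesterol synthesis and of its control by SREBP2 were followed in mIMCD3, a line of epithelial cells derived from the collecting duct of the mouse inner medulla. They were 8 of the 55367 genes in the count files, found by symbol: Srebf2 and Insig1, which regulate the pathway, and the enzymes Hmgcs1, Idi1, Fdft1, Sqle, Lss and Cyp51. WT cells received the solvent DMSO or 10 µM SFN (sulforaphane, a plant isothiocyanate that activates Nrf2) for 5 h and were sampled in isosmotic medium or after 1 h or 6 h of hyperosmotic stress at 600 mOsm, which gave 6 groups. Nrf2-/- cells, made with lentiviral CRISPR/Cas9 and selected with antibiotics, with no cloning step described, received SFN for 5 h and were sampled in isosmotic medium or after 1 h of the same stress, which gave 2 more groups. Each of the 8 groups had 2 RNA-seq libraries. In WT cells the same isosmotic group of a treatment was compared with 1 h and with 6 h. The labels give no isosmotic group for each time, so time since pretreatment cannot be told apart from the stress. Nrf2-/- cells with DMSO were not analysed here, so the effect of the genotype is seen only in the presence of SFN, and any other difference between the cell lines cannot be told apart from it.

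All 8 genes passed the filter on low counts in a test of 19509 genes, with 608 to 15096 counts per library. In WT cells 5 of the 6 enzymes were lower after 6 h of hyperosmotic stress, by 18.2% to 38.5%, whereas Srebf2 was not called. Of all genes, 22% (DMSO) and 22.9% (SFN) were called lower at that time, and the call of Lss with DMSO was lost under RLE size factors, by DESeq2, under both other filters and without any 1 of 3 libraries. Insig1 followed another course, lower at 1 h and higher again at 6 h than at 1 h. No call was made for SFN against DMSO in any of the 8 genes in the main test. Few genes were called there at all, 2.84% (isosmotic), 0.0923% (1 h) and 0.041% (6 h) of those tested. Under some alternatives with fewer libraries, Insig1 was called lower in isosmotic cells and Hmgcs1 was called lower at 1 h. Those alternatives called 14.5% to 15.2% (isosmotic) and 4.95% (1 h) of all genes. Nrf2-/- cells had less Srebf2, Hmgcs1, Idi1, Lss and Cyp51 mRNA than WT cells under both conditions sampled, where 18.4% (isosmotic) and 16.2% (1 h) of all genes were called lower. In a fit of the 1 h libraries alone, Srebf2 kept its call and the other 4 did not.

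Cholesterol is made from acetyl-CoA through mevalonate, isoprenoid units and squalene to lanosterol, which further enzymes convert to cholesterol. SREBP2, the product of Srebf2, is held in the endoplasmic reticulum by SCAP and the INSIG proteins while sterols are plentiful. When sterols fall, it moves to the Golgi apparatus, is cut by a pair of proteases, and its released part enters the nucleus to activate the genes of this pathway, Insig1 and Srebf2 itself included. Cells of the renal inner medulla live in fluid of high salt and urea content while urine is concentrated, and cholesterol is a main lipid of their plasma membranes.

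SREBP2 binds sterol regulatory elements, usually beside a CCAAT box bound by NF-Y. Promoter windows of the mouse RefSeq table (GRCm38.p6, the assembly also called mm10) were found for 6 of the 8 genes, and Sqle and Fdft1 had none. The core TCACNCCA, searched on both strands, was found in the windows of Hmgcs1 and Srebf2 and in 4.36% of 32851 windows of the same length. The longer consensus, which extends the core by a base at each end, was found in none of the 6 windows and in 0.234% of all. CCAAT was found in all 6 windows and in 37.4% of all. The core of the antioxidant response element to which Nrf2 binds, TGACNNNGC, was found in none of the 6 windows and in 12.4% of all, and TGGAAA, the core that NFAT factors bind, was found in the windows of Cyp51 and Idi1 and in 21.4% of all. A match describes only these letters in this window.

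Stretches of these windows that lie upstream of both the RefSeq and the GENCODE start are shown for Srebf2, which differed most between the genotypes, for Insig1, the member called at 1 h of stress, and for Hmgcs1, the enzyme with the most matches. Capitals mark TCACNCCA and CCAAT on either strand (CCAAT reads ATTGG on the opposite strand). They are printed 5′ to 3′ on the strand of the gene, here plus. The Srebf2 stretch was chr15:82147019-82147180, the Insig1 stretch chr5:28071162-28071362 and the Hmgcs1 stretch chr13:119690101-119690350.
Srebf2: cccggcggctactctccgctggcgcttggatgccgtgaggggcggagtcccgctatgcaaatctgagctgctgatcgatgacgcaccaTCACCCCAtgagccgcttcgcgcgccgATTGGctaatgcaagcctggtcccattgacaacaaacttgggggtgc
Insig1: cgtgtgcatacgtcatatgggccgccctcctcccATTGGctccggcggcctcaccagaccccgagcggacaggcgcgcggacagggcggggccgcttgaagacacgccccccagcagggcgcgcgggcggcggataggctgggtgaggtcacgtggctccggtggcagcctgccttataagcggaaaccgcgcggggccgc
Hmgcs1: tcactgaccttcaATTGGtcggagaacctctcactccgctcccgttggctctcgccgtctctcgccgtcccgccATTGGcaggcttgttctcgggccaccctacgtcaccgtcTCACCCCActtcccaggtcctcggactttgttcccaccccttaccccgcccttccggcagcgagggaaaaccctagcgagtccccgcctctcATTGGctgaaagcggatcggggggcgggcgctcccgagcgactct
Counted from the RefSeq start, the core began at -162 in Srebf2 and at -137 in Hmgcs1. CCAAT lay at -135 in Srebf2 and at -216 in Insig1, and Hmgcs1 held it at -237, -176 and -45 within the printed stretch.

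The libraries held 34484296 to 50774875 counts. The biological coefficient of variation between the 2 libraries of a group was 0.0395 to 0.128 in 7 groups and 0.348 in Nrf2-/- cells after 1 h, so values from that pair are given with and without each library where it matters. Nfe2l2, the gene of Nrf2, had 11.4 ± 0.361 and 11.1 ± 0.0814 CPM (SD, n = 2; CPM are read counts relative to the TMM-scaled library size) in isosmotic and 1 h Nrf2-/- cells, against 72.5 ± 7.83 and 75 ± 2.31 CPM in WT cells with SFN. Nqo1, an Nrf2 target, had 7.28 ± 0.134 CPM in isosmotic WT cells with SFN, 2.7 ± 0.214 CPM with DMSO and 0 counts in both isosmotic Nrf2-/- libraries. Of 13 markers of collecting duct and epithelium, 10 reached 1 CPM in WT groups and 8 in Nrf2-/- groups, and Aqp2, Aqp3 and Elf5 stayed under 1 CPM in all libraries. The paper states that its RNA-seq came from 2 biological replicates, while the labels do not say that these were separate cultures. The p-values rest on a spread between libraries that was estimated over all 8 groups, the wide Nrf2-/- 1 h pair included. In these bulk samples, fewer cells of a type and less RNA per cell cannot be told apart.

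**Figure D1:**
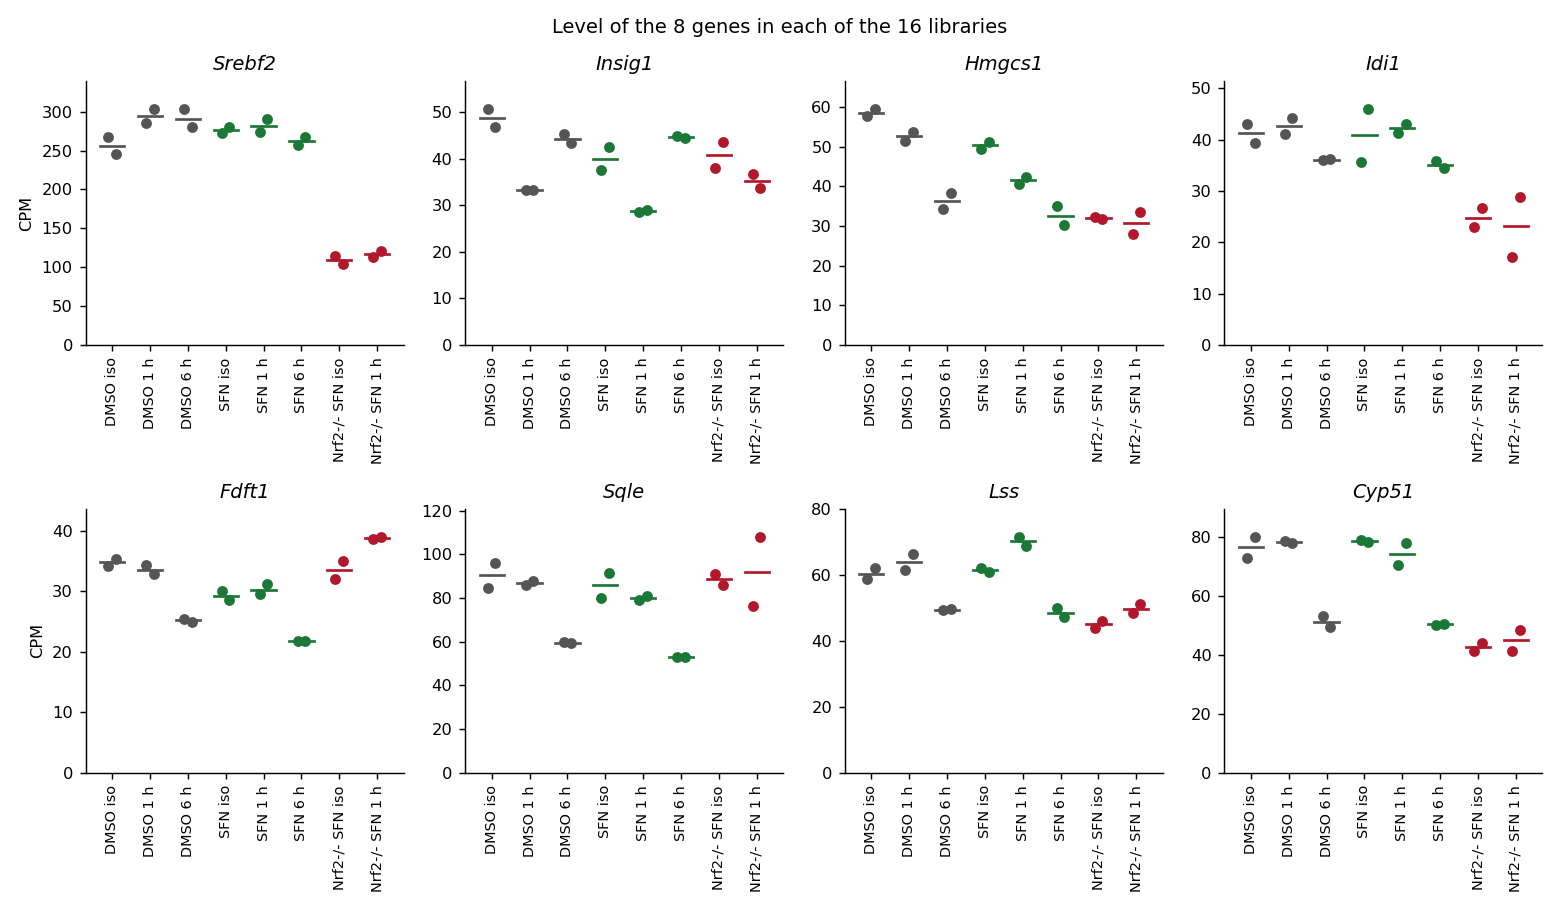
Level of each of the 8 genes (y axis, CPM from 0, 1 panel a gene) in every library of the 8 groups (x axis: DMSO grey, SFN green, Nrf2-/- with SFN red). Points are libraries and lines are means of 2. The points of Hmgcs1, Fdft1, Sqle, Lss and Cyp51 drop at 6 h, Insig1 dips at 1 h, and Srebf2 lies between 246 and 303 CPM in WT libraries and between 104 and 121 CPM in Nrf2-/- libraries.

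The members differed in abundance, which was compared per kilobase of exon (RPKM). Srebf2 was the most abundant in all 6 WT groups, with 35.7 ± 2.09 RPKM (SD, n = 2) in isosmotic DMSO cells. There it was followed by Cyp51 with 17.3 ± 1.13, Sqle with 16.3 ± 1.47, Insig1 with 15.7 ± 0.853, Hmgcs1 with 12.7 ± 0.273, Idi1 with 11.7 ± 0.746 and Fdft1 with 8.22 ± 0.183 RPKM. The libraries of Cyp51 and Sqle, and those of Sqle and Insig1, overlapped, so the order of these neighbours is not set. By this measure Lss was the lowest in all 8 groups, with 5.6 ± 0.22 RPKM in isosmotic DMSO cells. Its exon length, the union over all annotated transcripts, was 10787 bases, the longest of the 8. In CPM Lss (60.4) lay above Hmgcs1 (58.5), Insig1 (48.7), Idi1 (41.2) and Fdft1 (34.8) in these cells and below the other members. The low rank of Lss therefore rests on this length, and which transcripts were expressed was not tested. At 6 h Insig1 had moved to the second place with 14.3 ± 0.436 RPKM (DMSO) and 14.4 ± 0.125 RPKM (SFN). In Nrf2-/- cells Sqle and Srebf2 shared the top, with 16 ± 0.629 and 15.2 ± 0.953 RPKM in isosmotic medium, and their libraries overlapped.

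**Figure D2:**
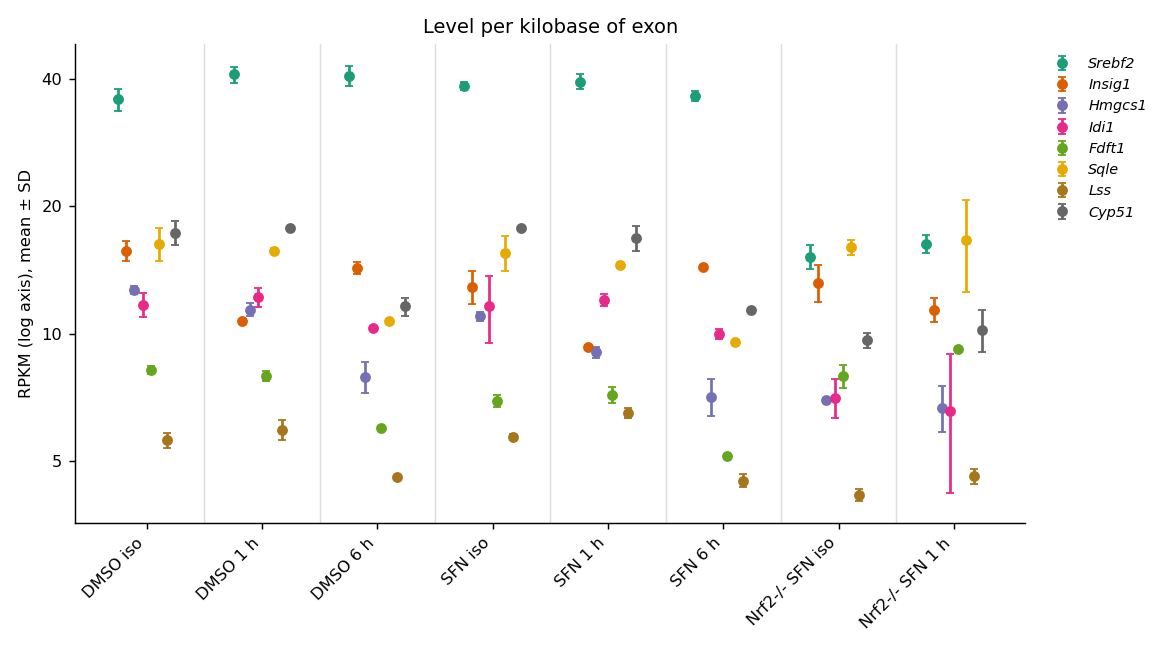
Level of the 8 genes per kilobase of exon (y axis, RPKM on a log axis) in the 8 groups (x axis). Points are means of 2 libraries and bars are SDs, and Srebf2 stands above all others in WT groups (35.7 RPKM in isosmotic DMSO cells) but not in Nrf2-/- groups (15.2 RPKM in isosmotic medium).

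The first question was how the pathway differed between stressed and isosmotic WT cells, with stress and time since pretreatment changing together. After 1 h with DMSO, Insig1 was called lower and the other 7 members were not called (adjusted p below 0.05 by the quasi-likelihood test of edgeR, over all genes tested), while 4.11% of all genes were called lower, 7.1% higher and 11.2% in either direction. With SFN Insig1 was again the member called at 1 h, lower, against 3.58% of all genes lower, 5.94% higher and 9.52% in either direction.

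After 6 h with DMSO, Hmgcs1, Fdft1, Sqle, Lss and Cyp51 were called lower, 5 of 8 members, and none was called higher. At that time 22% of all genes were called lower, 23.9% higher and 45.9% in either direction. All genes include many with fewer counts than the members. Of 12211 genes with at least 10 counts in every library, 3262 were called lower and 2970 higher with DMSO. With SFN these were 3349 and 3112. The median log2 fold change of the 8 members was -0.37, and that of all genes was 0.048. The same 5 genes were called lower at 6 h with SFN and none was called higher, against 22.9% of all genes lower, 24.7% higher and 47.6% in either direction. The members' median was then -0.39 and that of all genes 0.085. From 1 h to 6 h these 5 genes were again lower in both treatments and Insig1 was higher. Lower calls there covered 22% (DMSO) and 21.7% (SFN) of all genes, higher calls 20.4% and 20.9%, and both together 42.4% and 42.6%.

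The libraries of 6 h and isosmotic cells did not overlap in 8 of 8 members with DMSO and in 7 with SFN, against 75.6% and 76.3% of all genes, so a lack of overlap was common at that time. For 1 h these counts were 3 and 4 of 8, against 60.9% and 56.6% of all genes. At 6 h the sums of all marker lists were also at their highest of the WT groups. Summed CPM of the 13 markers of collecting duct and epithelium were 3855 to 4177 at 6 h and 2016 to 3152 in isosmotic WT libraries. Summed CPM of 4 proximal tubule markers were 21.2 to 27.5 at 6 h and 9.06 to 12.7 in isosmotic WT libraries, those of 3 leukocyte markers 6.89 to 10.7 and 1.93 to 3.14, those of 5 fibroblast markers 5.14 to 7.47 and 2.81 to 5.08, and those of 3 endothelial markers 4 to 5.36 and 0.0476 to 0.259. Slc34a1, Slc5a2, Col1a2, Pdgfra, Pdgfrb, Dcn, Adgre1 and Cdh5 stayed under 1 CPM in all libraries, and the part of these markers in the results was not tested.

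Srebf2 (chr15:82147181-82205379, plus strand, GRCm38) encodes the transcription factor of the pathway. Its isosmotic DMSO libraries had 267 and 246 CPM, those at 1 h 285 and 303 CPM and those at 6 h 303 and 280 CPM. With SFN the libraries had 272 and 280 CPM in isosmotic medium, 274 and 291 CPM at 1 h and 257 and 267 CPM at 6 h. The stressed DMSO libraries lay above the isosmotic ones, while the SFN libraries at 6 h lay below theirs. The difference with DMSO was 0.20 (SE 0.093) on the log2 scale at 1 h and 0.19 (SE 0.093) at 6 h, with adjusted p = 0.212 and 0.12. At 6 h it passed the threshold under 5 other settings, with 0.27 under RLE size factors (adjusted p = 0.0381) and by DESeq2 (0.0128), 0.31 with at least 10 counts in every library (0.0137), 0.23 in the libraries compared alone (0.024) and 0.21 in the 12 WT libraries alone (0.0108). At 1 h it did so with 0.22 (adjusted p = 0.022) in the 12 WT libraries alone. With SFN the difference at 6 h was -0.075 (SE 0.093, 95% interval -0.27 to 0.12, adjusted p = 0.535) and it was 0.057 where each library had to hold at least 10 counts. The change at 6 h with SFN minus that with DMSO was -0.26 (SE 0.13, adjusted p = 0.618).

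Insig1 (chr5:28071363-28078662, plus strand) encodes an endoplasmic reticulum protein that retains SCAP and SREBP2 when sterols are high, and it is itself an SREBP target. With DMSO it had 50.6 and 46.8 CPM in isosmotic libraries, 33.2 CPM in both libraries at 1 h and 45.3 and 43.4 CPM at 6 h. The 1 h libraries lay below all others of that treatment. Insig1 was 31.9% lower at 1 h than in isosmotic cells (log2 fold change -0.55, SE 0.11, adjusted p = 0.00391) and 33.6% higher at 6 h than at 1 h (0.42, SE 0.11, adjusted p = 0.00574). Without replicate 1 of the 6 h libraries the latter had an adjusted p = 0.0553. The 6 h and isosmotic groups differed by -0.14 (95% interval -0.36 to 0.094, adjusted p = 0.33).

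The course of Insig1 was similar with SFN. It had 37.5 and 42.4 CPM in isosmotic libraries, 28.5 and 29 CPM at 1 h and 44.9 and 44.4 CPM at 6 h. The 1 h libraries were again the lowest, and the 6 h libraries lay above the isosmotic ones. The log2 fold change was -0.48 (SE 0.11, adjusted p = 0.0118) from isosmotic to 1 h. This call was lost without isosmotic replicate 2, 1 h replicate 1 or 1 h replicate 2, with adjusted p = 0.159, 0.105 and 0.0839. From 1 h to 6 h Insig1 rose by 55.4% (0.64, SE 0.11, adjusted p = 0.000245). The 6 h and isosmotic groups differed by 0.16 (95% interval -0.07 to 0.39, adjusted p = 0.242), which was called higher with at least 10 counts in every library (0.29, adjusted p = 0.024).

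Hmgcs1 (chr13:119690379-119708260, plus strand) encodes the cytosolic synthase that makes HMG-CoA, from which mevalonate is formed. With DMSO its libraries had 57.7 and 59.4 CPM in isosmotic medium, 51.3 and 53.8 CPM at 1 h and 34.2 and 38.4 CPM at 6 h. With SFN they had 49.4 and 51.2 CPM, 40.6 and 42.4 CPM, and 34.9 and 30.3 CPM. Each stressed group lay below the isosmotic group, and the 6 h libraries were the lowest. At 6 h Hmgcs1 fell by 37.9% with DMSO (log2 fold change -0.69, SE 0.11, adjusted p = 0.000174) and by 35.2% with SFN (-0.63, SE 0.11, adjusted p = 0.000374). At 1 h with SFN the difference was -0.28 (SE 0.11, adjusted p = 0.154), which passed the threshold without both Nrf2-/- 1 h libraries (adjusted p = 0.0307), in the 12 WT libraries alone (0.0285) and in the libraries compared alone (0.0469). From 1 h to 6 h with SFN it was called lower by 0.35 in the main test (adjusted p = 0.0222) but not under RLE size factors (0.0666), by DESeq2 (0.0539), without the filter on low counts (0.0633), with at least 10 counts in every library (0.0813), or without 1 h replicate 1 (0.0632), 1 h replicate 2 (0.117) or 6 h replicate 2 (0.187).

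Idi1 (chr13:8885501-8892451, plus strand) encodes the isomerase that interconverts the basic isoprenoid units. It was the enzyme not called under hyperosmotic stress. With DMSO its libraries had 43 and 39.3 CPM in isosmotic medium, 41 and 44.3 CPM at 1 h and 36 and 36.2 CPM at 6 h. With SFN they had 35.7 and 45.9 CPM, 41.2 and 43.1 CPM, and 35.8 and 34.4 CPM. The isosmotic SFN pair was wide and overlapped the 6 h pair. The differences at 6 h were -0.19 (95% interval -0.58 to 0.21, adjusted p = 0.437) with DMSO and -0.22 (-0.61 to 0.18, adjusted p = 0.352) with SFN, so a fall as large as that of Lss lies within the intervals. The latter was -0.40 without isosmotic replicate 1 and -0.033 without isosmotic replicate 2. Without both Nrf2-/- 1 h libraries it was called, with -0.25 and adjusted p = 0.048.

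Fdft1 (chr14:63145150-63179578, minus strand) encodes squalene synthase, which joins farnesyl units to squalene and so commits them to sterols. With DMSO it had 34.2 and 35.3 CPM in isosmotic libraries, 34.3 and 32.9 CPM at 1 h and 25.5 and 25 CPM at 6 h. With SFN it had 30 and 28.6 CPM, 29.5 and 31.2 CPM, and 21.7 and 21.8 CPM. The 6 h libraries lay below all others of their treatment, and the 1 h libraries overlapped the isosmotic ones. At 6 h Fdft1 fell by 27.3% with DMSO (log2 fold change -0.46, SE 0.10, adjusted p = 0.00164) and by 25.7% with SFN (-0.43, SE 0.10, adjusted p = 0.00273). Its exons overlap those of Ctsb on the opposite strand, and the sources used here do not give the strand setting of the counting, so reads of this stretch may belong to either gene.

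Sqle (chr15:59315077-59331192, plus strand) encodes squalene epoxidase, an oxygen-dependent step that limits the flux from squalene to sterols. With DMSO it had 84.8 and 96.3 CPM in isosmotic libraries, 86.2 and 87.8 CPM at 1 h and 59.7 and 59.5 CPM at 6 h. With SFN it had 80.2 and 91.7 CPM, 79.3 and 81 CPM, and 52.8 and 53 CPM. Isosmotic and 1 h libraries overlapped, and the 6 h libraries lay below both. At 6 h Sqle fell by 34.2% with DMSO (log2 fold change -0.60, SE 0.13, adjusted p = 0.00199) and by 38.5% with SFN (-0.70, SE 0.13, adjusted p = 0.000625).

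Lss (chr10:76531588-76557138, plus strand) encodes lanosterol synthase, which closes the sterol rings. With DMSO it had 58.7 and 62.1 CPM in isosmotic libraries, 61.6 and 66.4 CPM at 1 h and 49.3 and 49.6 CPM at 6 h. With SFN it had 62.2 and 61 CPM, 71.5 and 68.9 CPM, and 49.8 and 47.3 CPM. The 6 h libraries were the lowest of their treatment, and with SFN the 1 h libraries were the highest. The fall at 6 h was the smallest of the 5 called genes, 18.2% with DMSO (log2 fold change -0.29, SE 0.090, adjusted p = 0.0161) and 21.2% with SFN (-0.34, SE 0.090, adjusted p = 0.0057). The call with DMSO was lost under RLE size factors (-0.20, adjusted p = 0.095), by DESeq2 (-0.20, 0.0518), without the filter on low counts (-0.30, 0.122), with at least 10 counts in every library (-0.17, 0.118), and without isosmotic replicate 2 (0.107), 6 h replicate 1 (0.0878) or 6 h replicate 2 (0.0756). From 1 h to 6 h with DMSO the call of Lss was lost without 1 h replicate 2 (-0.32, adjusted p = 0.0565). The call at 6 h with SFN was lost with at least 10 counts in every library (-0.21, adjusted p = 0.051) and without 6 h replicate 2 (-0.32, adjusted p = 0.0532).

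Cyp51 (chr5:4081145-4104746, minus strand) encodes the demethylase that acts on lanosterol. With DMSO it had 73 and 80.1 CPM in isosmotic libraries, 78.8 and 78.2 CPM at 1 h and 53.1 and 49.5 CPM at 6 h. With SFN it had 79 and 78.4 CPM, 70.7 and 78 CPM, and 50.2 and 50.6 CPM. The 6 h libraries were again apart from all others of their treatment. At 6 h Cyp51 fell by 33% with DMSO (log2 fold change -0.58, SE 0.10, adjusted p = 0.000332) and by 35.9% with SFN (-0.64, SE 0.10, adjusted p = 0.000127). Its exons overlap those of Akap9 on the opposite strand, with the same limit as for Fdft1.

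At 6 h the scaling of the libraries mattered for the size of these changes. The median of all genes moved from 0.048 under TMM to 0.14 under RLE size factors and 0.19 by DESeq2 with DMSO, and from 0.085 to 0.16 and 0.22 with SFN. Under RLE size factors Hmgcs1 was lower by 0.60 with DMSO and by 0.55 with SFN. The number of members called at 6 h was 5 under RLE size factors and 5 by DESeq2 in either treatment. With DMSO these 5 held Srebf2, higher, in place of Lss.

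The second question was whether SFN pretreatment altered the pathway. No member was called by SFN in isosmotic cells, after 1 h or after 6 h by edgeR, and DESeq2 called 0 as well. Of all genes, 2.84% (1.09% higher and 1.76% lower), 0.0923% and 0.041% were called in these comparisons. An unadjusted p under 0.05 was held by 2, 1 and 1 members and by 3010, 669 and 718 of 19509 genes. The members' medians were -0.043, -0.099 and -0.099, and those of all genes 0, 0 and 0.00081. Nqo1 was called higher with SFN in isosmotic cells and at 1 h. At 6 h it was 2.4-fold higher (log2 fold change 1.26, SE 0.28) but not called (adjusted p = 0.521). A missing call at 6 h therefore does not show a lack of effect. Insig1 in isosmotic cells had 37.5 and 42.4 CPM with SFN against 50.6 and 46.8 CPM with DMSO, libraries that did not overlap, as for 48.3% of all genes (log2 fold change -0.28, 95% interval -0.51 to -0.056, adjusted p = 0.205). Without both Nrf2-/- 1 h libraries this difference was called (adjusted p = 0.0368), as it was in the 12 WT libraries alone (0.0394). Hmgcs1 at 1 h had 40.6 and 42.4 CPM with SFN against 51.3 and 53.8 CPM with DMSO (-0.34, 95% interval -0.58 to -0.099, adjusted p = 1). It passed the threshold in a fit of the compared libraries alone (adjusted p = 0.000428). Fdft1 differed by -0.25 (95% interval -0.46 to -0.037, adjusted p = 0.235) in isosmotic cells and by -0.22 (-0.43 to -0.0018, adjusted p = 1) after 6 h. The intervals of these comparisons reached no further than -0.58 and 0.38 over the 8 genes. The change under stress did not differ between SFN and DMSO for any member by the test, with 0.559% of all genes called for the 1 h difference and 0.759% for the 6 h difference, and the lowest adjusted p of a member was 0.842 and 0.618.

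**Figure D3:**
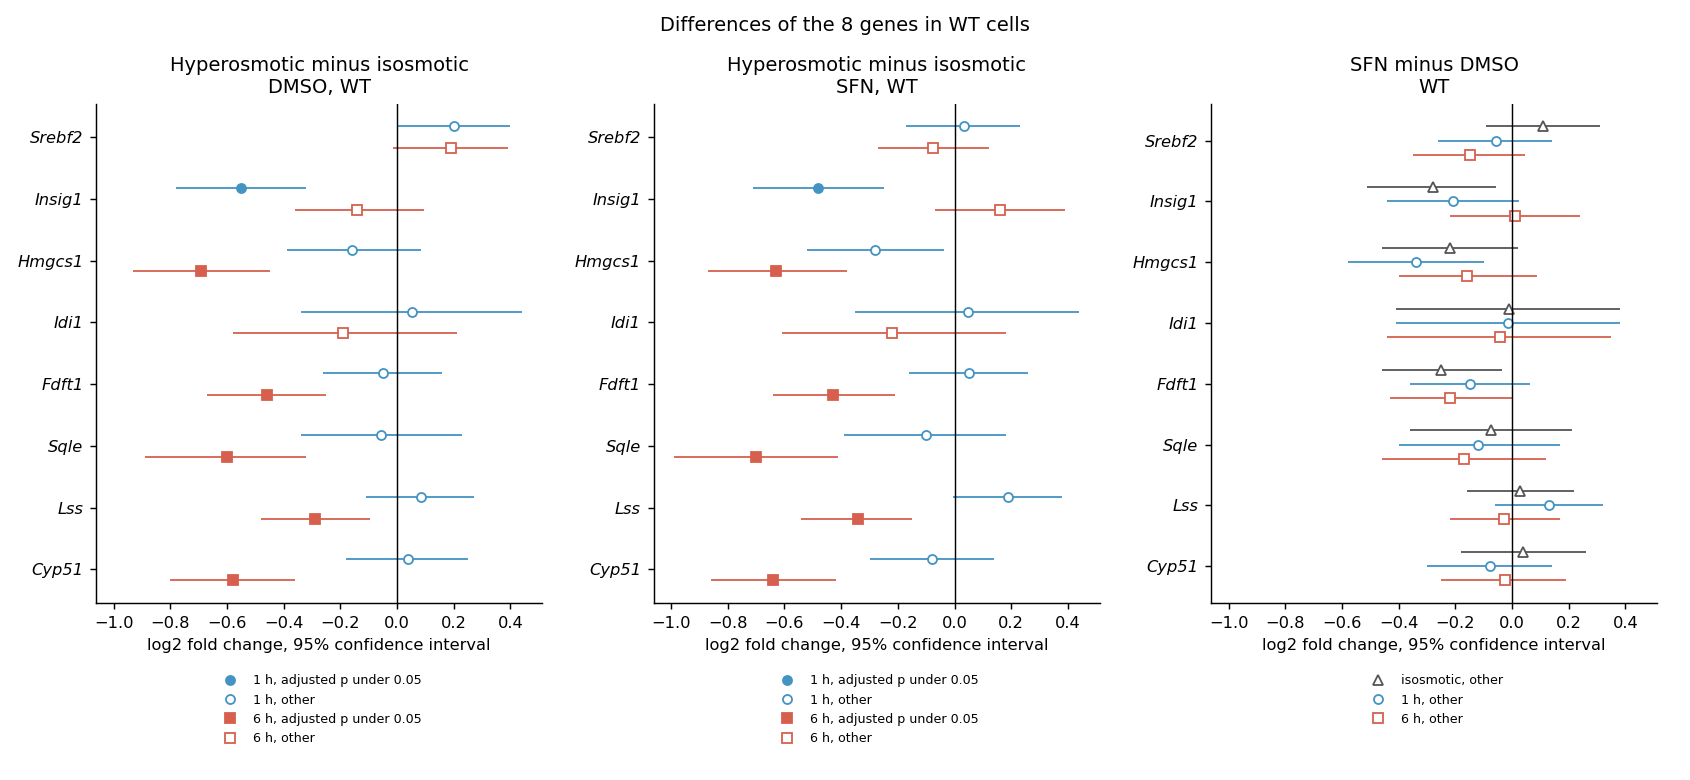
Log2 fold changes of the 8 genes in WT cells (x axis, with 95% confidence intervals), for hyperosmotic against isosmotic cells with DMSO (left) and SFN (middle) and for SFN against DMSO (right). Filled symbols passed an adjusted p of 0.05. The 6 h squares of Hmgcs1, Fdft1, Sqle, Lss and Cyp51 are filled and left of 0 in both treatments, the only filled 1 h circle is that of Insig1, and no symbol on the right is filled.

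The third question was how the pathway stood in cells without Nrf2. In isosmotic cells with SFN, 5 of 8 members were lower in Nrf2-/- than in WT cells and none was higher, while 18.4% of all genes were called lower, 15.7% higher and 34.1% in either direction. Of 12211 genes with at least 10 counts in every library, 2784 were called lower and 2825 higher. The median of the members was -0.55 and that of all genes tested -0.00091. After 1 h the same 5 members were lower and Fdft1 was higher, while 16.2% of all genes were called lower, 15.3% higher and 31.5% in either direction. A fit of the compared 1 h libraries alone rests on the spread of both pairs, the wide Nrf2-/- pair included. Srebf2 was the only member called in that fit. Leaving out 1 library at a time gave 4 to 5 calls in isosmotic cells and 4 to 7 after 1 h. The libraries of the genotypes did not overlap in 6 of 8 members in isosmotic cells and in 7 after 1 h, against 66.2% and 59% of all genes. Summed CPM of the 4 proximal tubule markers were 2.5 to 5.71 in Nrf2-/- libraries and 9.71 to 12.7 in the WT libraries compared. Those of the 5 fibroblast markers were 1.71 to 2.12 against 4.48 to 5.08 in isosmotic cells and 1.38 to 1.87 against 2.4 to 3.12 after 1 h. Those of the 13 epithelial markers were 2338 to 2463 against 2016 to 2206 in isosmotic cells and overlapped after 1 h, and those of leukocyte and endothelial markers overlapped at both times. The part of these markers was not tested.

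Srebf2 showed the largest difference of the 8 genes. Isosmotic Nrf2-/- libraries had 114 and 104 CPM against 272 and 280 CPM in WT libraries, and after 1 h they had 113 and 121 CPM against 274 and 291 CPM. No Nrf2-/- library reached the level of a WT library. Srebf2 was 2.53-fold lower in isosmotic cells (log2 fold change -1.34, SE 0.095, adjusted p = 6.03e-08) and 2.42-fold lower after 1 h (-1.27, SE 0.095, adjusted p = 1.18e-07).

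Among the enzymes before squalene, Hmgcs1 and Idi1 were lower. Hmgcs1 had 32.2 and 31.7 CPM in isosmotic Nrf2-/- libraries and 28 and 33.4 CPM after 1 h, all below the WT libraries with SFN of the same time. The differences were -0.65 (SE 0.11, adjusted p = 0.000381) and -0.44 (SE 0.11, adjusted p = 0.00854), and the latter had an adjusted p = 0.0708 without WT 1 h replicate 2. Idi1 had 22.9 and 26.6 CPM in isosmotic Nrf2-/- libraries and 17.2 and 28.9 CPM after 1 h, again below the WT libraries. Its differences were -0.72 (SE 0.19, adjusted p = 0.00739) and -0.87 (SE 0.19, adjusted p = 0.00243). After 1 h the difference was -0.53 without Nrf2-/- replicate 1 and -1.29 without replicate 2, both called, and the call was lost in the libraries compared alone (-0.87, adjusted p = 0.133). In isosmotic cells the call was lost without WT replicate 2 (-0.53, adjusted p = 0.0909) or without Nrf2-/- replicate 1 (-0.62, adjusted p = 0.0764).

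Fdft1 was the member called higher, after 1 h. It had 32.1 and 35 CPM in isosmotic Nrf2-/- libraries, against 30 and 28.6 CPM in WT libraries, and 38.7 and 39 CPM after 1 h, against 29.5 and 31.2 CPM. The Nrf2-/- libraries were the higher ones at both times. The difference was 0.20 (SE 0.099, adjusted p = 0.144) in isosmotic cells and 0.36 (SE 0.099, adjusted p = 0.0127) after 1 h. DESeq2 called the former (0.24, adjusted p = 0.0316). The latter was lost without WT 1 h replicate 1 (adjusted p = 0.132) or replicate 2 (0.0576), without the filter on low counts (0.133) and in the compared libraries alone (0.205).

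Of the enzymes after squalene, Cyp51 and Lss were lower and Sqle was not called. Cyp51 had 41.3 and 43.9 CPM in isosmotic Nrf2-/- libraries and 41.4 and 48.6 CPM after 1 h, below every WT library with SFN at those times. It was lower by 0.88 (SE 0.10, adjusted p = 9.76e-06) and by 0.72 (SE 0.10, adjusted p = 7.43e-05). Lss had 43.9 and 46 CPM and then 48.3 and 51.1 CPM, also below the WT libraries, and was lower by 0.45 (SE 0.090, adjusted p = 0.00118) and by 0.50 (SE 0.090, adjusted p = 0.000634). Sqle had 91.1 and 86.2 CPM in isosmotic Nrf2-/- libraries, which overlapped the WT range, and 76.2 and 108 CPM after 1 h. Its differences were 0.044 (95% interval -0.24 to 0.33, adjusted p = 0.86) and 0.20 (-0.086 to 0.49, adjusted p = 0.29). After 1 h the sign rested on 1 library, since the difference was 0.44 (adjusted p = 0.000465) without Nrf2-/- replicate 1 and -0.074 (adjusted p = 0.659) without replicate 2.

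Insig1 had 37.9 and 43.5 CPM in isosmotic Nrf2-/- libraries, which overlapped the WT libraries (0.027, 95% interval -0.20 to 0.26, adjusted p = 0.901). After 1 h it had 36.8 and 33.6 CPM against 28.5 and 29 CPM in WT cells, groups that did not overlap (0.29, SE 0.11, adjusted p = 0.0504). It was called higher under RLE size factors (0.34, adjusted p = 0.026), by DESeq2 (0.34, 0.00798), with at least 10 counts in every library (0.30, 0.0291) and without Nrf2-/- replicate 2 (0.36, 0.0176).

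Within Nrf2-/- cells, 1 h of hyperosmotic stress called no member by edgeR, while 7.17% of all genes were called, 4.36% higher and 2.81% lower. An unadjusted p under 0.05 was held by 0 members and by 3987 of 19509 genes. The libraries did not overlap in 3 of 8 members and in 37% of all genes. DESeq2 called 0 as well. Insig1, the gene that fell at 1 h in WT cells, differed by -0.21 (95% interval -0.44 to 0.021, adjusted p = 0.302), and Fdft1 by 0.21 (-0.00017 to 0.42, adjusted p = 0.245). The 1 h change of Insig1 in Nrf2-/- cells minus that in WT cells with SFN was 0.27 (95% interval -0.058 to 0.59, adjusted p = 0.782), so a difference between the genotypes was not shown, and no member was called for it, against 0.123% of all genes. The wide Nrf2-/- 1 h pair decided 2 genes. Without replicate 1 Sqle was called higher (0.28, adjusted p = 0.0419) and without replicate 2 Idi1 was called lower (-0.52, adjusted p = 0.00859).

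**Figure D4:**
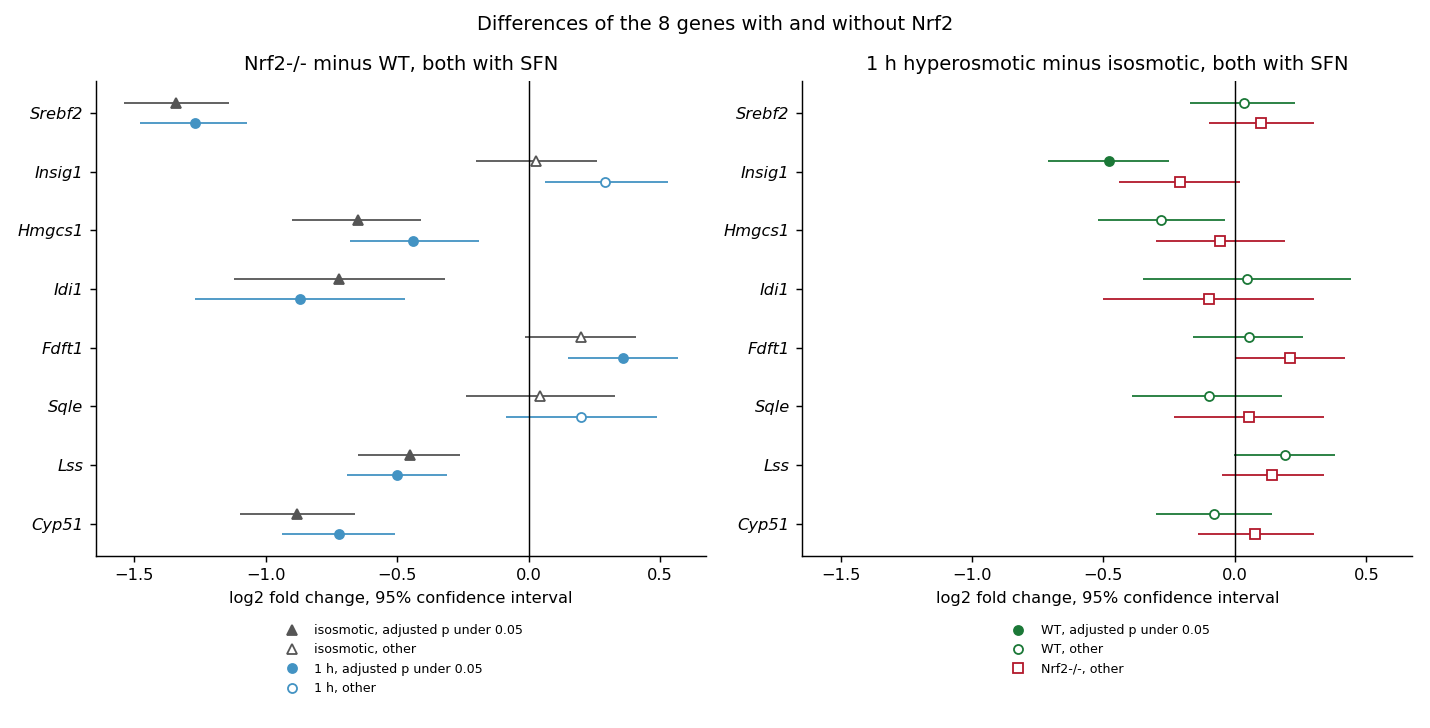
Log2 fold changes of the 8 genes (x axis, with 95% confidence intervals) for Nrf2-/- against WT cells, both with SFN (left), and for 1 h of hyperosmotic stress in WT and Nrf2-/- cells with SFN (right). Filled symbols passed an adjusted p of 0.05. On the left Srebf2 lies furthest from 0 (-1.34 and -1.27), and on the right only Insig1 in WT cells is filled.

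The 8 genes were set beside 19 enzymes of the pathway, 6 of them members. At 1 h none of the 19 was called in any of the 3 comparisons with isosmotic cells, against 11.2%, 9.52% and 7.17% of all genes. At 6 h 12 were lower and 1 was higher with DMSO, and 13 were lower and none was higher with SFN, with medians of -0.52 and -0.56. All genes had medians of 0.048 and 0.085 there, with 22% lower and 23.9% higher (DMSO) and 22.9% lower and 24.7% higher (SFN). Mvk, which encodes mevalonate kinase, had 29.3 and 32.2 CPM in isosmotic DMSO libraries and 15.8 and 15.9 CPM at 6 h (-0.96, SE 0.15, adjusted p = 0.000146). Dhcr7, which encodes the last reductase of one branch of the pathway, had the largest fall of the 19 at 6 h, by 1.05 with DMSO (adjusted p = 3.65e-06) and by 1.20 with SFN (adjusted p = 9.6e-07). Dhcr7 and Fdps are named here because of their values, outside the rule for named genes. Fdps, which encodes farnesyl diphosphate synthase, was the enzyme higher with DMSO, at 3.98 against 1.97 CPM (1.02, SE 0.27, adjusted p = 0.00661). Its low counts and its pseudogene copies make this value uncertain.

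In Nrf2-/- cells enzymes were called in both directions. In isosmotic cells 6 of the 19 enzymes were lower and 4 were higher, and after 1 h 6 were lower and 2 were higher. Of all genes, 18.4% were lower and 15.7% higher in isosmotic cells, and 16.2% and 15.3% after 1 h. Of the 8 enzymes up to squalene, 4 were lower (Acat2, Hmgcs1, Mvd and Idi1) in isosmotic cells and none was higher. Of the 11 enzymes from Sqle on, 2 were lower (Lss and Cyp51) and 4 were higher (Lbr, Nsdhl, Hsd17b7 and Sc5d) in isosmotic cells. After 1 h the same enzymes were lower in both parts. Fdft1 was then called higher up to squalene, and from Sqle on only Sc5d was still called higher. Sc5d, which encodes a late sterol desaturase, had 52.3 and 53.5 CPM in isosmotic Nrf2-/- libraries against 32.2 and 35.8 CPM in WT libraries. The medians were -0.63 up to squalene and 0.044 after it in isosmotic cells, and -0.44 and 0.095 after 1 h. A difference between the sets was not tested.

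**Figure D5:**
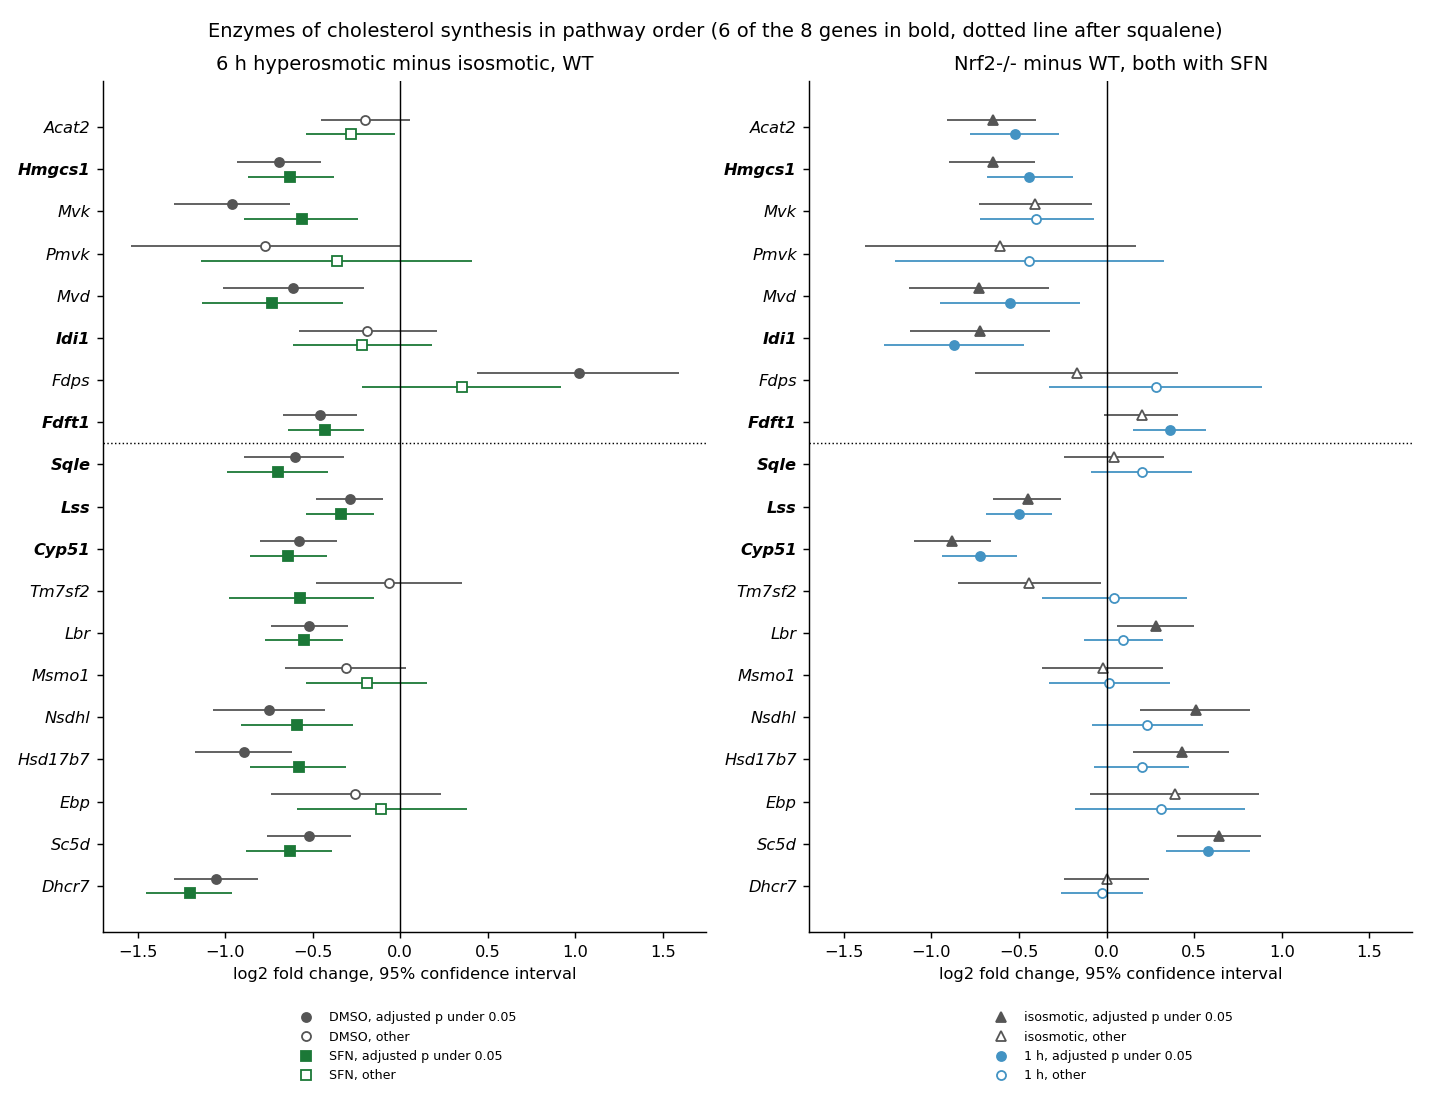
Log2 fold changes of 19 enzymes of cholesterol synthesis from top to bottom in pathway order (x axis, with 95% confidence intervals), for 6 h of hyperosmotic stress in WT cells with DMSO or SFN (left) and for Nrf2-/- against WT cells with SFN (right). Names in bold are members, the dotted line separates the 8 enzymes up to squalene from the 11 after it, and filled symbols passed an adjusted p of 0.05. On the left 12 (DMSO) and 13 (SFN) filled symbols lie left of 0, and on the right filled symbols lie on both sides of it.

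Other targets of SREBP2 were tested as a list of 7 genes, chiefly of cholesterol uptake and transport. At 6 h 3 were lower (Mmab, Stard4 and Tmem97) and Npc1l1 was higher in either treatment, so 4 of 7 were called where 45.9% (DMSO) and 47.6% (SFN) of all genes were. Npc1l1, a cholesterol transporter of apical membranes, had 0 and 2 counts in isosmotic DMSO libraries, 45 and 54 counts at 1 h and 294 and 268 counts at 6 h. Npc1l1 with SFN had 0 and 4, 31 and 52, and 234 and 226 counts. It was called higher at 1 h and 6 h in WT cells. The median of the 7 was -0.14 with DMSO and -0.20 with SFN at 6 h. In Nrf2-/- cells 1 was higher and 2 were lower in isosmotic medium, and the same 3 genes (Fads1, higher, and Npc1 and Rdh11, lower) were called after 1 h, against 34.1% and 31.5% of all genes in either direction. SFN against DMSO gave no call in any of the lists, against 2.84% (isosmotic), 0.0923% (1 h) and 0.041% (6 h) of all genes.

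Of 9 genes for the processing and breakdown of SREBPs, 4 were lower at 6 h in either treatment (Srebf1, Mbtps1, Mbtps2 and Insig2) and none was higher, against 22% and 22.9% of all genes lower and 45.9% and 47.6% in either direction. Srebf1, the related factor that drives fatty acid synthesis, had 146 and 139 CPM in isosmotic DMSO libraries and 89.8 and 92.4 CPM at 6 h (-0.65, SE 0.091, adjusted p = 4.7e-05), whereas Srebf2 was not called. In Nrf2-/- cells 3 of the 9 were higher and 2 were lower in isosmotic medium. After 1 h 4 were higher and 1 was lower. Calls in either direction covered 34.1% (isosmotic) and 31.5% (1 h) of all genes. Srebf1 was lower in Nrf2-/- cells like Srebf2 (-0.87, SE 0.092, adjusted p = 3.6e-06, isosmotic). Mbtps2, which encodes the protease that releases SREBPs from the membrane, had 98.9 and 103 CPM in isosmotic Nrf2-/- libraries against 37.4 and 43.3 CPM in WT libraries (1.32, SE 0.17, adjusted p = 2.12e-05).

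Of 8 genes of cholesterol efflux, storage and LXR response, 7 were tested, and Abca1 did not pass the filter. At 6 h Apoe, Mylip and Abcg1 were higher and Soat1, Nceh1 and Lpcat3 were lower in either treatment, against 23.9% and 24.7% of all genes higher and 22% and 22.9% lower. Apoe, a lipid carrier, had 7.84 and 9.42 CPM in isosmotic DMSO libraries and 43.2 and 41.3 CPM at 6 h (2.29, SE 0.42, adjusted p = 0.000872). Soat1, which esterifies cholesterol for storage, had 50.7 and 50.1 CPM and then 21.6 and 23.7 CPM (-1.15, SE 0.15, adjusted p = 2.32e-05). In Nrf2-/- cells 2 of the 7 were higher (Soat1 and Nceh1) and 1 was lower (Mylip) in isosmotic medium and after 1 h. Calls in either direction covered 34.1% and 31.5% of all genes. Soat1 had 143 and 142 CPM in isosmotic Nrf2-/- libraries against 53.4 and 55.7 CPM in WT libraries (1.38, SE 0.15, adjusted p = 4.54e-06). Mylip, which encodes a ubiquitin ligase induced by LXR, differed by -1.39 (SE 0.23, adjusted p = 0.0003).

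Of 11 genes of fatty acid synthesis, 10 were tested. At 6 h 2 were lower and 1 was higher with DMSO, and 5 were lower with SFN, against 22% and 22.9% of all genes lower. Scd2, a desaturase, had 617 and 576 CPM in isosmotic DMSO libraries and 337 and 315 CPM at 6 h (-0.87, SE 0.11, adjusted p = 1.61e-05). Of 8 genes of branches that use mevalonate products for ubiquinone, dolichol and protein prenylation, 5 were lower and none was higher at 6 h in either treatment, against the same shares of all genes. Pdss2, a subunit of the enzyme that builds the ubiquinone side chain, had 13.4 and 16.4 CPM in isosmotic DMSO libraries and 4.66 and 5.68 CPM at 6 h (-1.53, SE 0.17, adjusted p = 4.12e-06).

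Across the 8 group means, the members varied together only in part. Pearson's r between pairs of members ranged from -0.54 to 0.95 over 28 pairs, with a median of 0.25, and Insig1 had a median of -0.23 with the other 7. These values describe 8 points that share treatments and cells. The genes whose group means were most like the mean standardized profile of the members among 12283 genes were Tssc4, Atxn10, Fdxr, 3110040N11Rik and Cdk5, each with r = 0.99 over 8 groups. Tssc4 for example had 31.6 CPM in isosmotic DMSO cells, 17.7 CPM at 6 h with DMSO and 15 CPM in isosmotic Nrf2-/- cells.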

How the data were processed

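RNA-seq was analysed for 16 mIMCD3 libraries in 8 groups of 2, grouped by their labels. The labels name "primary TEC" in 1 protocol and mIMCD3 elsewhere, and mIMCD3 was used. The deposited values are raw read counts per gene symbol, 1 file a library, which the authors made by alignment to mm10 and FeatureCounts. The paper's methods name Hisat2 as the aligner and the submitters' processing notes name Bowtie2. Versions, annotation and strand setting are not given in the sources used here, so reads of overlapping or near-identical genes may be shared or lost. Lines without a gene name, at most 3 a library, were left out.

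Counts were scaled by TMM, filtered with edgeR's filterByExpr (19509 genes kept) and tested with edgeR 4.0.16 in R 4.3.3 by the robust quasi-likelihood test, with 1 coefficient for each of the 8 groups and Benjamini-Hochberg adjustment over all genes tested. Calls are two-sided at an adjusted p of 0.05. An exact permutation test of 2 against 2 libraries could not go below p = 0.333. CPM are TMM-scaled, and RPKM divides them by the length of the union of all exons of the gene in GENCODE. Libraries held 34484296 to 50774875 counts and each member at least 608 a library. Of the values from 1 to 10, 58.01% to 68.53% were even. Whether both mates of a fragment were counted was not tested, so counts may exceed the number of independent fragments. The libraries of each group differed by more than sampling noise.

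The 8 members, the other lists and the motifs were chosen with earlier results of these data known. Some genes of the lists are not reported here and were left out of their counts. Named genes are the members, up to 6 genes a list by the number of comparisons in which they were called, Nfe2l2 and Nqo1, and the 5 genes most like the members. Acat2, Dhcr7, Fdps and Rdh11 are named outside this rule, chosen after their values were seen. Alternatives were no filter, RLE size factors, a minimum of 10 counts in each library, the replicate number as a block, only the libraries compared, leaving out both Nrf2-/- 1 h libraries or all Nrf2-/- libraries, leaving out each library, and DESeq2 1.42.0.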

Additional observations from a re-analysis of the deposited data

How the results depend on the processing

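Over the alternatives, the 120 log2 fold changes of the members (8 genes in 15 comparisons) gave 1480 values, of which 1367 kept the direction and the side of the threshold, 32 lost a call, 27 gained a call and 54 changed sign. The sign changed for 31 of the 120, none of them called in the main test or under the alternative that turned it, and the largest of these was 0.20. The number of members called was 4 to 6 against 5 at 6 h in either treatment and in isosmotic Nrf2-/- against WT cells, and 5 to 7 against 6 from 1 h to 6 h. It moved by over 1.5 times in the following cases. For 1 h of stress with DMSO it was 2 (Insig1 and Srebf2) in the 12 WT libraries alone, against 1. For 1 h of stress with SFN it was 2 (Hmgcs1 and Insig1) in the libraries compared, without both Nrf2-/- 1 h libraries and in the 12 WT libraries, against 1, and 0 to 1 when 1 library was left out. For SFN in isosmotic cells it was 1 (Insig1) without both Nrf2-/- 1 h libraries and in the 12 WT libraries, against 0. For SFN at 1 h it was 1 (Hmgcs1) in the libraries compared, against 0. For Nrf2-/- against WT cells at 1 h it was 1 (Srebf2) in the libraries compared, against 6. For 1 h of stress in Nrf2-/- cells it was 0 to 1 when 1 library was left out. Where a group is left with 1 library, that library is assumed to vary like the other groups. The cause was not tested.

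Among the values given in the report, Srebf2 at 6 h with SFN was 0.057 with at least 10 counts in every library. When 1 library was left out, Insig1 in isosmotic Nrf2-/- against WT cells ranged from -0.08 to 0.12, Sqle there from -0.054 to 0.14 and at 1 h from -0.074 to 0.44. For 1 h of stress in Nrf2-/- cells, Sqle ranged from -0.22 to 0.28 and Idi1 from -0.52 to 0.22. The share of all genes called by SFN in isosmotic cells was 14.5% without both Nrf2-/- 1 h libraries and 15.2% in the 12 WT libraries, against 2.84%. For 1 h of stress with DMSO it was 5.36% with at least 10 counts in every library and 22.9% in the 12 WT libraries, against 11.2%, and with SFN 4.38% and 18.3%, against 9.52%. Without the filter it was 26.2% at 6 h with DMSO and 27.7% with SFN, against 45.9% and 47.6%, and 20% and 18.5% for Nrf2-/- against WT cells, against 34.1% and 31.5%. In the libraries compared alone the latter were 52.1% and 10.1%. For SFN at 1 h and 6 h it was 4.95% and 0.623% in the libraries compared, against 0.0923% and 0.041%. For 1 h of stress in Nrf2-/- cells it was 0.045% in the libraries compared and 23.9% or 21.6% without replicate 1 or 2 of the 1 h pair, against 7.17%.

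No common deviation of same-numbered libraries was seen (r from -0.0794 to 0.123 over 28 pairs of groups, 1 above 0.1). These values do not show whether such libraries shared more than a number. With the replicate number as a block the number of members called was 1 and 5 for 1 h and 6 h of stress with DMSO, 1 and 5 with SFN, 0 for SFN at each time, 5 and 6 for Nrf2-/- against WT cells in isosmotic medium and at 1 h, and 0 for 1 h of stress in Nrf2-/- cells, each the same count as without the block.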
